A study of Homo sapiens with 18 samples.

Results

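The genes described are 7 of the ceramide-forming steps: the ceramide synthases CERS2, CERS4, CERS5 and CERS6, the dihydroceramide desaturases DEGS1 and DEGS2 and the very long chain elongase ELOVL1. They were followed in 18 RNA sequencing libraries. They were taken by gene name from the table of expression values, 7 of 27166 genes, and every one of them has a row with a value in each library. The libraries come from 3 human cancer cell lines: NCIH838 from a lung adenocarcinoma, DLD1 from a colon adenocarcinoma and HUH7 from a hepatocellular carcinoma. Each line has 3 libraries of KDSR KO and 3 of CTRL, which the submitters call biological replicates, and the question was how the mRNA of each line differs with and without KDSR. All groups were infected with lentivirus carrying lentiCRISPR v2, which delivers Cas9 and a guide: the guide KDSR g1 in KDSR KO and a non-targeting guide in CTRL. All were grown in DMEM with serum and selected with puromycin for 5 days. RNA was collected on day 10 after infection in NCIH838 and on day 8 in DLD1 and HUH7, so that line and collection day cannot be told apart in any comparison with NCIH838. A single guide was used, and the labels name no clone, so a KDSR KO culture may hold edited and unedited cells.

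Ceramide is made on the endoplasmic reticulum from serine and palmitoyl-CoA. Serine palmitoyltransferase makes 3-ketodihydrosphingosine, KDSR reduces it to dihydrosphingosine, a ceramide synthase adds a fatty acid to give dihydroceramide, and a desaturase puts in the double bond that makes it ceramide. Ceramide synthases also re-acylate sphingosine recycled from complex sphingolipids, a route that does not need KDSR. The synthases differ in the acyl chain they prefer: CERS2 uses very long chains, CERS4 long to very long ones, and CERS5 and CERS6 mainly palmitoyl-CoA. ELOVL1 lengthens saturated acyl-CoAs to the very long chains that CERS2 uses. DEGS1 is the general desaturase, and DEGS2 can also hydroxylate dihydroceramide to phytoceramide.

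On hg38 with GENCODE 29, CERS2 lies at chr1:150960583-150975004, ELOVL1 at chr1:43363397-43368074, CERS5 at chr12:50129306-50167533 and DEGS2 at chr14:100143957-100160163, all on the minus strand. CERS4 lies at chr19:8206736-8262421, CERS6 at chr2:168455862-168775137 and DEGS1 at chr1:224175756-224193441, all on the plus strand. Exons of CERS2 share 948 bases with SETDB1 on the other strand, those of DEGS2 share 280 bases with EVL and those of CERS6 share 2999 bases with CERS6-AS1. Whether the authors' counting used strand is not stated in the sources used here, so reads in these stretches cannot be assigned with certainty. SETDB1 had 16.5 to 21.7 TPM over all libraries, with no group standing apart, and EVL was lowest where DEGS2 was highest, at 0.0564 TPM in both DLD1 groups.

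The RefSeq promoter table (GRCh38.p14, 250 bases before to 50 after the gene's start) holds 5 of the 7 genes; CERS2 and CERS4 are not in it. The promoters below are those of the 3 genes whose level passed the test between NCIH838 libraries labelled KDSR KO and CTRL, with 1 of the 2 listed DEGS1 starts, and of DEGS2, the gene found above 1 TPM in 1 line. Each is written 5′ to 3′ on the gene's strand, in lower case, with matches of the searched motifs in capitals. ELOVL1 is at chr1:43367962-43368261 (minus strand), CERS5 at chr12:50167320-50167619 (minus), DEGS1 at chr1:224182990-224183289 (plus) and DEGS2 at chr14:100159596-100159895 (minus).
ELOVL1: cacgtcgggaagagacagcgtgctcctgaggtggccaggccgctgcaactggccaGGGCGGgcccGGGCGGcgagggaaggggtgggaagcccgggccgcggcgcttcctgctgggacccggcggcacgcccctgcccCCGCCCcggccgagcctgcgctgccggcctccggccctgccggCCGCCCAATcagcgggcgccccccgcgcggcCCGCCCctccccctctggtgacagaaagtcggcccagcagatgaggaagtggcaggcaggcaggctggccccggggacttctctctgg
CERS5: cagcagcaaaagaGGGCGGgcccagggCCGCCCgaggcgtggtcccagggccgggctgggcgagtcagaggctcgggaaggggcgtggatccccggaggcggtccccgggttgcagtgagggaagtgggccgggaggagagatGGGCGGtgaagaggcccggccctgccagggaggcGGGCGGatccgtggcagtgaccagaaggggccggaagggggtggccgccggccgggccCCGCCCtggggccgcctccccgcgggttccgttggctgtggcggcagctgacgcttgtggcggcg
DEGS1: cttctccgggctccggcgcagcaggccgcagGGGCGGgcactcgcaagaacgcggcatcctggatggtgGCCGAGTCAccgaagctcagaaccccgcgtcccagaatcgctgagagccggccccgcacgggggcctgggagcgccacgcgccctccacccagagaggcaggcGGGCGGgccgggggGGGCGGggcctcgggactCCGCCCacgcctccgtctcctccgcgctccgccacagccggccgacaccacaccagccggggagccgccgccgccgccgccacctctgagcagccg
DEGS2: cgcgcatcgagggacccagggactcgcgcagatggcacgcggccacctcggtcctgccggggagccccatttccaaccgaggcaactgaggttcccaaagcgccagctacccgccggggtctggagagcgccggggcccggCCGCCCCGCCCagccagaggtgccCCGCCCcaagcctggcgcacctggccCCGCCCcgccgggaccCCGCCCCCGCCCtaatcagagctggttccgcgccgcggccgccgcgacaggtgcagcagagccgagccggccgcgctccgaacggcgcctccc
On both strands, 6 motifs were searched: the SP1 GC box GGGCGG, the NF-Y box CCAAT, the antioxidant response element TGACNNNGC, a pair of heat shock element units GAANNTTC, the ATF4 composite element TTGCATCA and a sterol regulatory element TCACNCCAC. The GC box matched 5 times in ELOVL1, 5 times in CERS5, 4 times in DEGS1 and 6 times in DEGS2, some of them overlapping, and it is present in 44.9% of 34796 promoters of the table. ELOVL1 has 1 CCAAT box, which overlaps a GC box (34.6% of promoters hold one), and DEGS1 has 1 antioxidant response element match (13.3%). The CERS6 promoter, not printed, has 3 GC boxes and 1 CCAAT box, and the second DEGS1 start, at chr1:224183430-224183729, matched none of the 6. The heat shock (6.79% of promoters), ATF4 (0.871%) and sterol (1.12%) letters occur in none of the 6 windows. The windows are 72.3% to 80.3% GC, against a median of 58.7% for the table. The window at 80.3% is that of the second DEGS1 start, which has no GC box. The part of GC content in the matches was not tested.

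Depth was 17039634 to 20385767 recovered reads per library. Levels are in TPM, a gene's share of the mRNA per length, so levels may be compared between genes of a library. Between libraries, a TPM also moves with large changes in other genes. The liver list was present in HUH7, with 8 of 8 markers averaging 1 TPM or more, led by ALB at 6099 TPM in KDSR KO and 5963 TPM in CTRL. The colon list was present in DLD1, with 7 of 8 markers, led by CDH17 at 201 TPM in KDSR KO and by CDX2 at 246 TPM in CTRL, and its summed level was 540 to 551 TPM in KDSR KO and 638 to 670 TPM in CTRL. HUH7 also held 5 of the 8 colon markers, summing to 144 to 154 TPM in KDSR KO and 143 to 149 TPM in CTRL, with VIL1 the highest at 109 TPM in KDSR KO and 111 TPM in CTRL. In NCIH838, 0 of the 6 lung markers in the table reached 1 TPM, and NAPSA was the highest at 0.834 TPM in KDSR KO and 0.902 TPM in CTRL. NCIH838 is therefore named by its label only. In NCIH838 the colon list summed to 5.10 to 5.82 TPM in KDSR KO and 0.940 to 1.67 TPM in CTRL, nearly all of it from MUC13, with 4 of 8 markers at 0 in all KDSR KO libraries. The liver list summed to 0.729 to 1.58 TPM in KDSR KO and 0.833 to 6.69 TPM in CTRL. The part of these markers in the results was not tested. Mitochondrially encoded genes took 11.9% to 15.2% of TPM in both NCIH838 groups, 8.35% to 9.59% in DLD1 KDSR KO and 6.32% to 8.96% in DLD1 CTRL, and 8.98% to 10.6% in HUH7 KDSR KO and 7.07% to 12.5% in HUH7 CTRL.

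KDSR itself was 13.8, 12.5 and 12.3 TPM in NCIH838 libraries labelled KDSR KO, against 11.9, 13.7 and 14.7 TPM in CTRL, so the groups overlapped (exact permutation test, two-sided, p = 0.7). It was 19.5, 19.4 and 18.7 TPM in DLD1 KDSR KO and 29.7, 32.2 and 27.2 TPM in CTRL. It was 3.67, 4.01 and 3.21 TPM in HUH7 KDSR KO and 5.08, 6.54 and 5.74 TPM in CTRL. The exact p was 0.1 in DLD1 and in HUH7, the smallest that 3 libraries against 3 can give. A frameshift need not lower the mRNA, and nothing in the level of KDSR shows the knockout in NCIH838. The groups of that line are therefore called by their labels below.

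**Figure D1:**
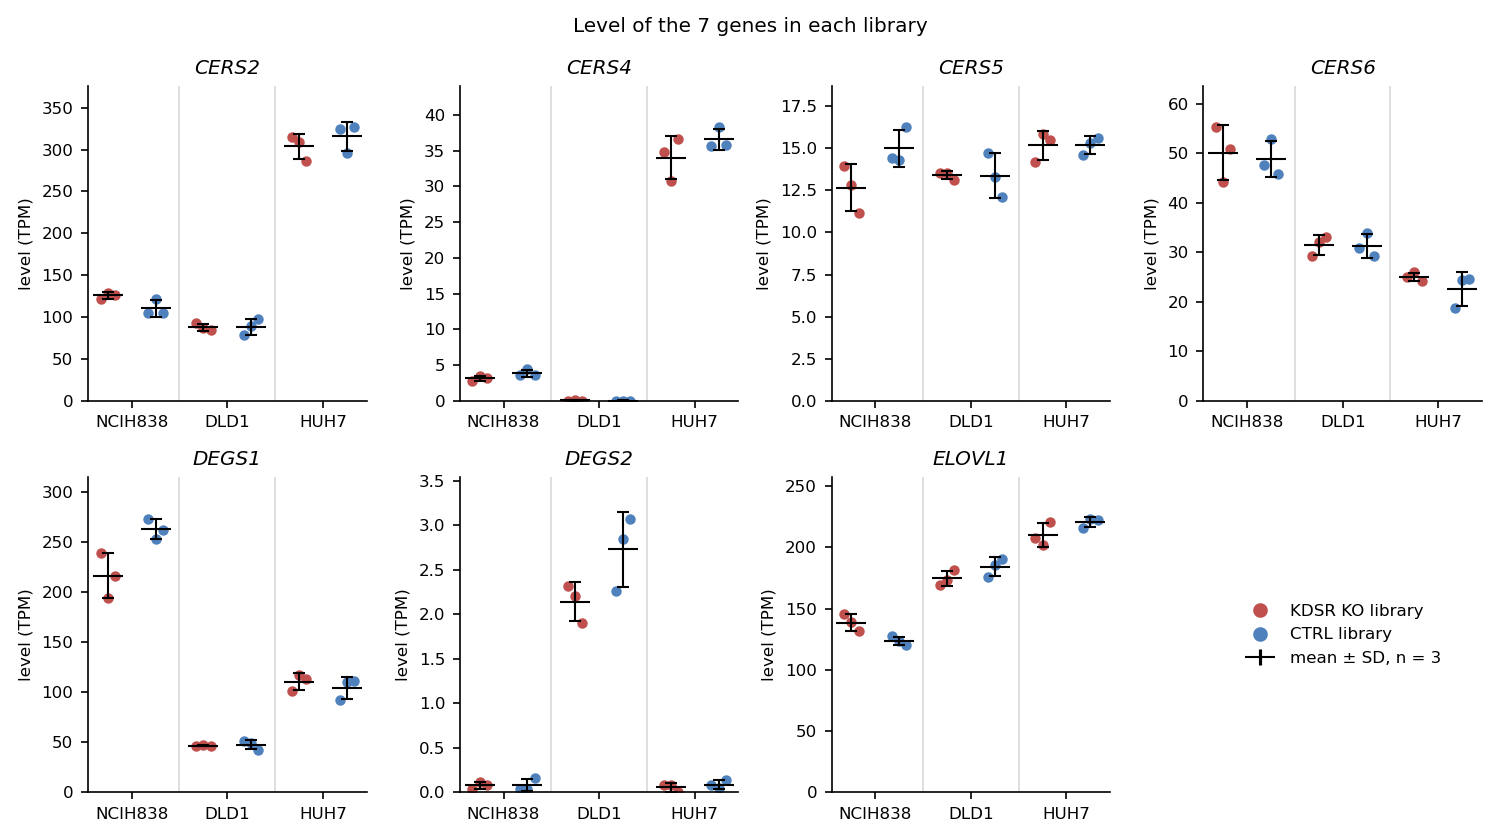
Level of each gene in every library, in TPM on a linear axis from 0, with KDSR KO (red) left of CTRL (blue) in each line; points are libraries, black bars the mean ± SD (n = 3). The large steps are between lines, as for CERS4 (0.0321 TPM in DLD1 CTRL and 36.6 TPM in HUH7 CTRL), while KDSR KO and CTRL differ by at most 1.27-fold for the genes tested.

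CERS2 was the most abundant ceramide synthase in every library. Its level was 126 ± 3.82 TPM in NCIH838 labelled KDSR KO and 110 ± 9.74 TPM in CTRL, 87.7 ± 4.22 and 88.3 ± 9.44 TPM in DLD1 KDSR KO and CTRL, and 304 ± 15.2 and 316 ± 17.0 TPM in HUH7 KDSR KO and CTRL (mean ± SD, n = 3 each). The HUH7 libraries were all above those of the other lines. CERS6 came second in NCIH838 and DLD1 and had its lowest CTRL mean in HUH7: 50.1 ± 5.52 and 48.8 ± 3.67 TPM in NCIH838 KDSR KO and CTRL, 31.5 ± 1.98 and 31.3 ± 2.40 TPM in DLD1, and 25.1 ± 0.833 and 22.6 ± 3.37 TPM in HUH7.

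CERS4 differed most between the lines. It was 3.602, 4.45 and 3.63 TPM in NCIH838 CTRL, 0.0479, 0.0483 and 0 TPM in DLD1 CTRL, and 35.6, 38.3 and 35.8 TPM in HUH7 CTRL. The DLD1 values rest on 1, 1 and 0 reads. In all, CERS4 had 2 reads in DLD1 CTRL, against 2253 in HUH7 CTRL, a depth-corrected ratio of 0.000927 (exact 95% interval 0.000112 to 0.00335). Set against the 259 reads of NCIH838 CTRL, the ratio of DLD1 was 0.00870 (0.00105 to 0.0318). These intervals cover counting error only. In DLD1 KDSR KO it had 1, 3 and 0 reads, so CERS4 was at or near the limit of detection in all 6 DLD1 libraries. Those libraries held 17039634 to 20339678 reads each.

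CERS5 was the most even of the 7 genes. Its mean was 12.6 ± 1.40 and 14.98 ± 1.10 TPM in NCIH838 KDSR KO and CTRL, 13.4 ± 0.245 and 13.4 ± 1.32 TPM in DLD1, and 15.2 ± 0.867 and 15.2 ± 0.533 TPM in HUH7. CERS1, a synthase for stearoyl-CoA known from nerve and muscle, had a mean of at most 0.991 TPM in any group and was not tested. It shares 2517 exon bases with GDF1 on the same strand. CERS3, known from skin and testis, is not among the 27166 genes by that name, so no level is given.

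The 4 synthases together came to 192 ± 1.92 TPM in NCIH838 KDSR KO and 178 ± 13.2 TPM in CTRL, 133 ± 2.44 and 133 ± 7.78 TPM in DLD1, and 378 ± 13.7 and 390 ± 14.6 TPM in HUH7. CERS2 made up 65.7% ± 2.64 and 62.0% ± 0.847 of that sum in NCIH838 KDSR KO and CTRL, 66.1% ± 1.95 and 66.3% ± 3.59 in DLD1, and 80.3% ± 1.18 and 80.9% ± 1.67 in HUH7. The share of CERS6 was 26.1% ± 2.63 and 27.4% ± 0.583 in NCIH838 KDSR KO and CTRL, 23.8% ± 1.91 and 23.6% ± 2.20 in DLD1, and 6.63% ± 0.181 and 5.80% ± 0.926 in HUH7. In HUH7 the second synthase was CERS4, with 9.02% ± 1.02 in KDSR KO and 9.39% ± 0.731 in CTRL. CERS4 was at 1.65% ± 0.219 and 2.18% ± 0.105 in NCIH838 KDSR KO and CTRL, and at 0.0509% ± 0.0569 and 0.0247% ± 0.0214 in DLD1. The share of CERS5 in CTRL was 8.46% ± 1.06 in NCIH838, 10.1% ± 1.60 in DLD1 and 3.89% ± 0.193 in HUH7. The transcripts of the palmitoyl-CoA synthases CERS5 and CERS6 were thus a larger share in NCIH838 and DLD1 than in HUH7. For CERS5 this holds for the share only: its CTRL level was 14.98 TPM in NCIH838, 13.4 TPM in DLD1 and 15.2 TPM in HUH7. These shares describe mRNA and carry no test.

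**Figure D2:**
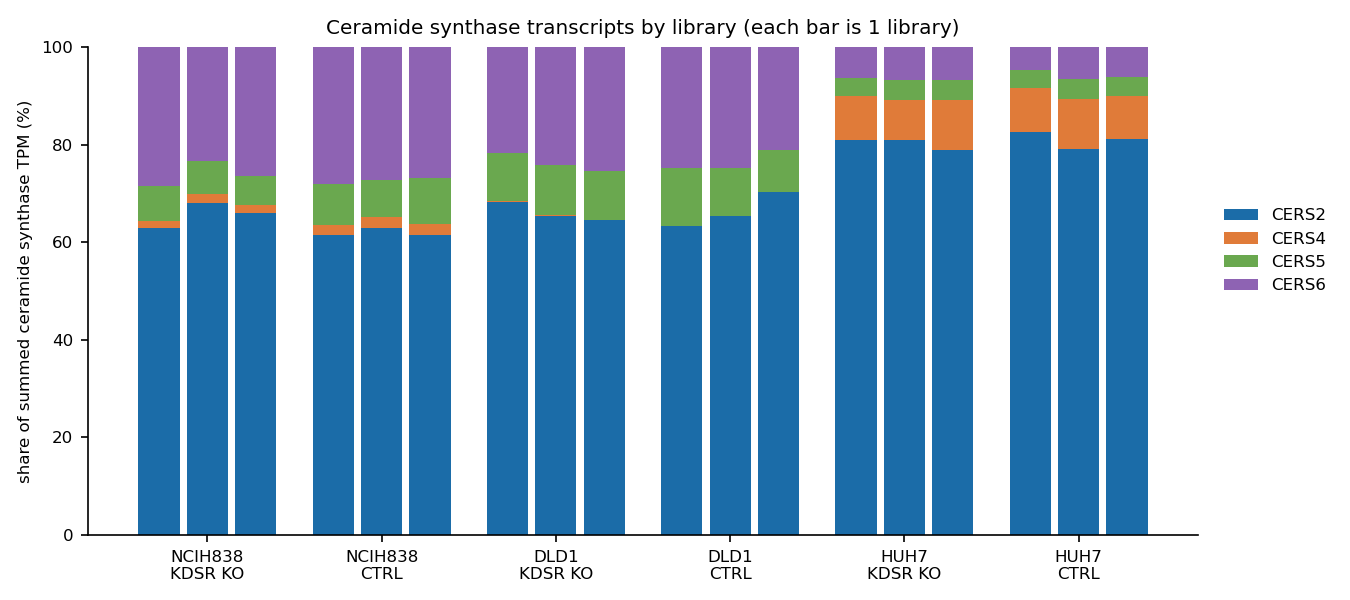
Share of the summed TPM of CERS2, CERS4, CERS5 and CERS6 taken by each gene, in percent; each bar is 1 library, and KDSR KO stands left of CTRL in each line. CERS2 takes 61.5% to 82.5% in every library, and the orange CERS4 segment is widest in HUH7 and too thin to see in DLD1.

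DEGS1, the general desaturase, had 216 ± 22.5 TPM in NCIH838 KDSR KO and 263 ± 9.96 TPM in CTRL, 46.7 ± 0.781 and 47.7 ± 4.57 TPM in DLD1 KDSR KO and CTRL, and 110.7 ± 8.52 and 104 ± 10.8 TPM in HUH7. Every NCIH838 library was above every HUH7 library, and every HUH7 library above every DLD1 library. DEGS2 was highest where DEGS1 was lowest. It had 6 reads over the 3 CTRL libraries of NCIH838 and 6 over those of HUH7, against 176 over those of DLD1, where its level was 2.26, 2.85 and 3.08 TPM. The ratio to DLD1 CTRL was 0.0302 in NCIH838 (exact 95% interval 0.0109 to 0.0672) and 0.0327 in HUH7 (0.0118 to 0.0725). DEGS2 gave 4.38% ± 0.393 of the summed desaturase TPM in DLD1 KDSR KO and 5.48% ± 1.26 in CTRL, and under 0.122% in each NCIH838 and HUH7 library. ELOVL1 was high in all lines: 139 ± 6.94 and 124 ± 3.37 TPM in NCIH838 KDSR KO and CTRL, 175 ± 6.13 and 184 ± 7.72 TPM in DLD1, and 210.1 ± 9.74 and 221 ± 4.05 TPM in HUH7. Its ratio to CERS2 was 1.10 ± 0.0806 and 1.13 ± 0.102 in NCIH838 KDSR KO and CTRL, 2.00 ± 0.160 and 2.09 ± 0.139 in DLD1, and 0.693 ± 0.0669 and 0.7004 ± 0.0471 in HUH7.

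The order of levels differed by line. In NCIH838 CTRL it ran DEGS1, ELOVL1, CERS2, CERS6, CERS5, CERS4, DEGS2, with only ELOVL1 and CERS2 overlapping (121 to 127 TPM and 105 to 122 TPM). In DLD1 CTRL it ran ELOVL1, CERS2, DEGS1, CERS6, CERS5, DEGS2, CERS4, and no neighbours overlapped. In HUH7 CTRL it ran CERS2, ELOVL1, DEGS1, CERS4, CERS6, CERS5, DEGS2, again with no overlap.

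The CTRL groups of the lines were compared by limma on log2(TPM + 1), with p-values adjusted over all genes tested and a call at an adjusted p under 0.05. Of the genes tested, 78% were called between NCIH838 and DLD1, 76.7% between NCIH838 and HUH7 and 75.9% between DLD1 and HUH7. Read against that background, 6 of 7 of the genes were called in the first comparison, 5 of 6 in the second and 6 of 7 in the third. The exception each time was CERS5, which differed by 0.16 (adjusted p = 0.0921), -0.02 (0.856) and -0.17 (0.0655) on the log2 scale in those 3 comparisons. The CERS5 value between NCIH838 and DLD1 passed with median ratio scaling (adjusted p = 0.00352), without mitochondrially encoded genes (0.00920), with limma voom on reads (0.00586) and without DLD1 CTRL replicate 1 (0.0281). That between DLD1 and HUH7 passed in 7 of 28 alternatives, with the lowest adjusted p, 0.00120, under median ratio scaling. Median ratio scaling moved the median of all genes by 0.11 between NCIH838 and DLD1 and by -0.14 between DLD1 and HUH7. In CTRL, DEGS1 was 5.52-fold higher in NCIH838 than in DLD1 (log2 difference 2.44 ± 0.090 SE, adjusted p = 6.2e-13) and 2.52-fold higher than in HUH7 (1.33, adjusted p = 1.43e-09). CERS2 was lower than in HUH7 by 1.51 in NCIH838 (-1.51, adjusted p = 3.67e-11) and by 1.83 in DLD1 (-1.83, adjusted p = 2.99e-12). CERS6 was 2.16-fold higher in NCIH838 than in HUH7 (log2 difference 1.08, adjusted p = 8.38e-08). ELOVL1 was lower in NCIH838 than in HUH7 (-0.83, adjusted p = 1.9e-10) and than in DLD1 (-0.57, adjusted p = 2.16e-08). Log2 differences of CERS4 and DEGS2 depend on the 1 TPM added: that of CERS4 between DLD1 and HUH7 was -5.19, and -9.42 by limma voom. That of CERS4 between NCIH838 and DLD1 was 2.24, and 6.28 by voom. DEGS2 differed by -1.78 between NCIH838 and DLD1 and by 1.77 between DLD1 and HUH7, and by -4.83 and 4.69 with voom. All of these kept their sign and call in every alternative run. Line, tissue of origin and any batch of a line cannot be told apart.

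**Figure D3:**
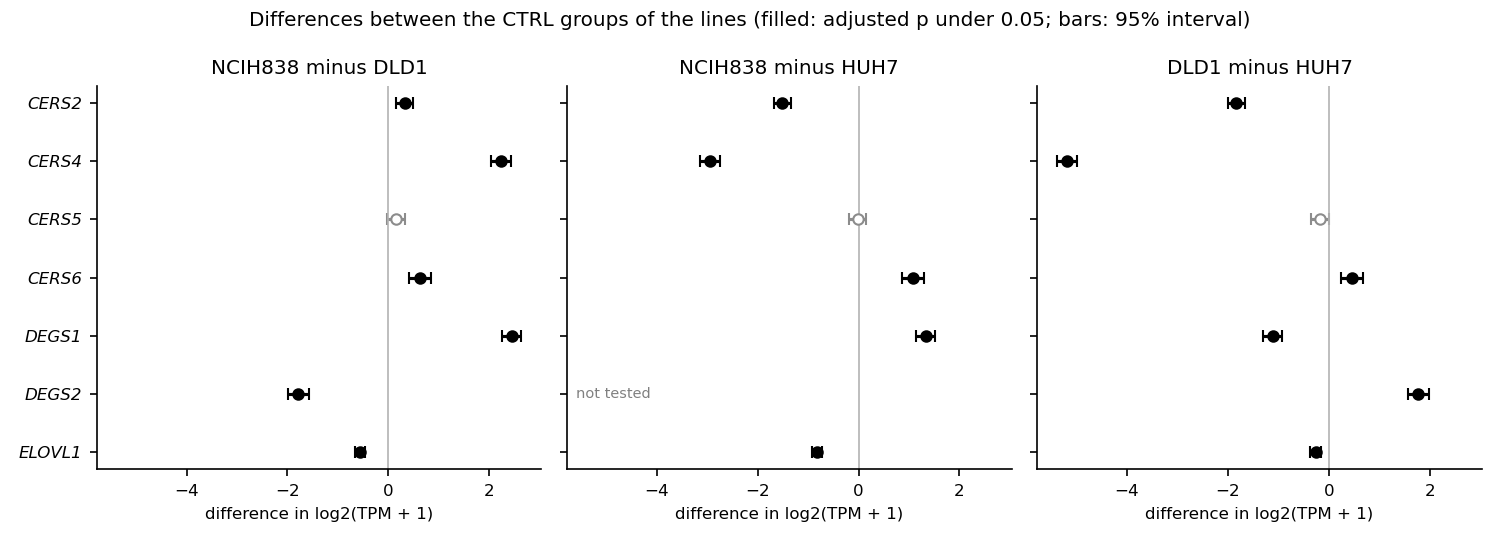
Difference in log2(TPM + 1) between the CTRL groups of each pair of lines, with the 95% interval from limma; filled points have an adjusted p under 0.05. CERS5 is unfilled in all 3 panels, and CERS4 between DLD1 and HUH7 is the farthest from 0, at -5.19.

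In NCIH838, ELOVL1 was higher and DEGS1 and CERS5 were lower in libraries labelled KDSR KO than in CTRL, by 11.9%, 17.8% and 15.6%. Of the 6 genes tested there, 3 were called, 1 higher and 2 lower. The background was high: 42.5% of 16347 genes were called, 15.7% higher and 26.8% lower, so this count is near that of genes at large. With quantile normalization the calls over all genes were 3319 higher and 3691 lower, in place of 2560 and 4385. The median log2 difference was -0.10 over the 6 genes and -0.09 over all genes tested. The 3 libraries of each label did not overlap for 5 of the 6 genes, against 50.8% of all genes.

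ELOVL1 had 145, 139 and 131 TPM in libraries labelled KDSR KO and 127, 124 and 121 TPM in CTRL. All 3 KDSR KO libraries were above all 3 of CTRL. The difference was 11.9% (log2 0.16 ± 0.048 SE, limma, adjusted p = 0.0138). It missed the threshold when only the 2 groups were fitted (adjusted p = 0.0562), without CTRL replicate 3 (0.0567) and without KDSR KO replicate 1 (0.0628). Over the 28 alternatives the adjusted p was 0.00115 to 0.0628.

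DEGS1 had 239, 194 and 216 TPM in libraries labelled KDSR KO and 273, 253 and 262 TPM in CTRL. All KDSR KO values were below the lowest of CTRL, and they were the more spread. The log2 difference was -0.29 ± 0.090 SE (limma, adjusted p = 0.0187), and it missed the threshold without CTRL replicate 1 (adjusted p = 0.0635) and without KDSR KO replicate 2 (0.0929). Over the alternatives the adjusted p was 0.00233 to 0.0929. The ratio of DEGS1 to the summed synthases was 1.13 ± 0.106 in KDSR KO and 1.48 ± 0.154 in CTRL.

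CERS5 had 13.96, 12.8 and 11.2 TPM in libraries labelled KDSR KO and 14.4, 14.3 and 16.2 TPM in CTRL. The groups did not overlap, with the highest KDSR KO library just under the lowest of CTRL. The log2 difference was -0.23 ± 0.081 SE (limma, adjusted p = 0.0324). Over the 28 alternatives the adjusted p was 0.0109 to 0.162, and this call was lost in 6 of them. Among these were median ratio scaling (0.0772), quantile normalization (0.139) and a fit of the 2 groups only (0.111). The others left out CTRL replicate 3 (0.138) or replicate 2 (0.0557) or 3 (0.162) of KDSR KO.

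CERS2 had 121.8, 129 and 127 TPM in libraries labelled KDSR KO and 105, 121.7 and 105 TPM in CTRL, so the groups just failed to overlap. Its log2 difference of 0.19 (95% interval 0.03 to 0.35) had an adjusted p of 0.0577 by limma. It passed in 7 of 28 alternatives, among them quantile normalization (adjusted p = 0.0132), median ratio scaling (0.0241), limma voom (0.0255) and leaving out CTRL replicate 2 (0.0174). CERS4 had 2.76, 3.54 and 3.18 TPM in KDSR KO and 3.602, 4.45 and 3.63 TPM in CTRL, all below. Its difference of -0.24 (-0.43 to -0.04) had an adjusted p of 0.0529 by limma and passed in 4 of 27 alternatives. CERS6 had 55.3, 44.3 and 50.8 TPM in KDSR KO and 47.7, 52.9 and 45.8 TPM in CTRL, which overlap (0.03, 95% interval -0.18 to 0.25, limma adjusted p = 0.813). DEGS2 had 6 reads over the 3 libraries of each label and was not tested (ratio 1.002, exact 95% interval 0.268 to 3.75).

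In DLD1, 0 of the 6 genes tested were called, where 17.3% of 15478 genes were. Of the 6, 1 had an unadjusted p under 0.05 by limma, as did 4903 of the 15478, a larger share. That gene was DEGS2, with 2.32, 2.21 and 1.90 TPM in KDSR KO (47, 49 and 44 reads) and 2.26, 2.85 and 3.08 TPM in CTRL (52, 65 and 59 reads). The first CTRL library lay within the range of KDSR KO. The log2 difference was -0.24 ± 0.099 SE (limma, adjusted p = 0.104), and without CTRL replicate 1 it was -0.34 (adjusted p = 0.0361). ELOVL1 had 170, 174 and 182 TPM in KDSR KO and 176, 186 and 191 TPM in CTRL (log2 difference -0.07, 95% interval -0.17 to 0.03). DEGS1 had 46.6, 47.5 and 46.0 TPM in KDSR KO and 51.4, 49.1 and 42.6 TPM in CTRL (-0.02, -0.22 to 0.17). The intervals of CERS2 (-0.17 to 0.16), CERS5 (-0.17 to 0.18) and CERS6 (-0.21 to 0.23) reached at most 0.23 from 0. No gene's libraries stood apart by label, against 39.2% of all genes, and the median was -0.02 over the 6 genes and -0.07 over all genes tested. CERS4 had 4 reads in KDSR KO and 2 in CTRL and was not tested (ratio 1.98, exact 95% interval 0.284 to 21.9).

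In HUH7, 0 of the 6 genes tested were called by limma and 0 had an unadjusted p under 0.05. The background there was 0% of 16104 genes called, with 1806 of the 16104 at an unadjusted p under 0.05 and 0 calls by limma voom. CERS6 had the largest difference, 25.04, 25.9 and 24.3 TPM in KDSR KO and 18.7, 24.4 and 24.7 TPM in CTRL (log2 difference 0.15, 95% interval -0.06 to 0.37). Its first CTRL library was the low one, and without that library the difference was 0.03. That library also had the highest mitochondrial share of the line, 12.5%, whose part in the CERS6 value was not tested. CERS4 had 34.7, 30.7 and 36.6 TPM in KDSR KO and 35.6, 38.3 and 35.8 TPM in CTRL (-0.10, -0.30 to 0.09). CERS2 had 315, 310 and 287 TPM in KDSR KO and 324, 296 and 327 TPM in CTRL (-0.06, -0.22 to 0.11). ELOVL1 had 207, 202 and 221 TPM in KDSR KO and 216, 223 and 223 TPM in CTRL (-0.07, -0.17 to 0.03). DEGS1 (0.09, -0.11 to 0.28) and CERS5 (0.00, -0.17 to 0.17) also had intervals that hold 0. The labels overlapped for all 6, where 16.9% of all genes did not overlap, and the median was -0.03 over the 6 genes and 0.02 over all genes tested. DEGS2 had 4 reads in KDSR KO and 6 in CTRL and was not tested (ratio 0.658, exact 95% interval 0.136 to 2.77).

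**Figure D4:**
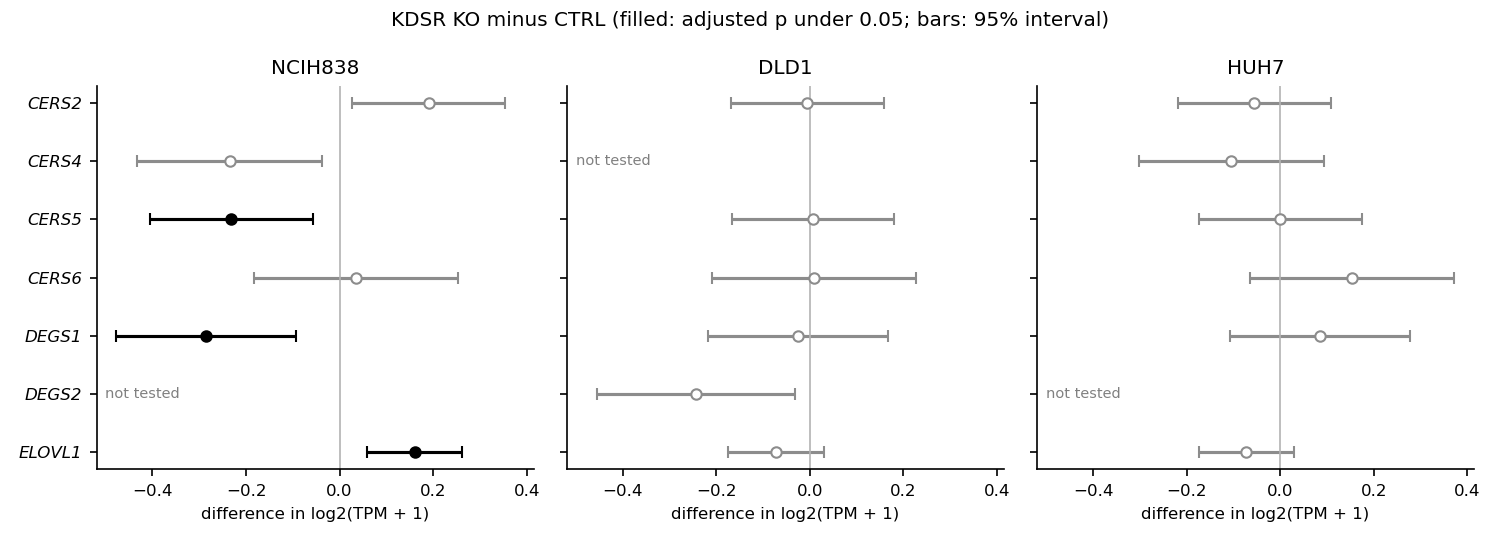
Difference in log2(TPM + 1), KDSR KO minus CTRL, with the 95% interval from limma in each line; filled points have an adjusted p under 0.05. In NCIH838 ELOVL1 (0.16) is filled to the right of 0 and DEGS1 (-0.29) and CERS5 (-0.23) to the left, and every point in DLD1 and HUH7 is unfilled.

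Whether the difference between KDSR KO and CTRL itself differed between lines was tested for the 5 genes that averaged 1 TPM or more in every line, which leaves out CERS4 and DEGS2. ELOVL1 differed more toward higher in NCIH838 than in DLD1, by 0.23 ± 0.068 SE on the log2 scale (limma, adjusted p = 0.0278), and than in HUH7, by 0.23 ± 0.068 SE (adjusted p = 0.0161). The second held in all 28 alternatives, the first in 19 of 28. The first missed the threshold with plain eBayes (adjusted p = 0.0539) and with any one of 8 libraries left out, replicates 2 and 3 of DLD1 CTRL, 1 and 2 of DLD1 KDSR KO, 2 and 3 of NCIH838 CTRL and 1 and 2 of NCIH838 KDSR KO (0.0528 to 0.0694). DEGS1 differed between NCIH838 and HUH7 by -0.37 ± 0.127 SE (adjusted p = 0.0359, passed in 18 of 28). It missed the threshold without a filter (0.0583), with a replicate block (0.0567), in a fit of the groups compared (0.0573) and with any one of 7 libraries left out, replicate 1 of HUH7 CTRL, 2 and 3 of HUH7 KDSR KO, 1 and 3 of NCIH838 CTRL and 2 and 3 of NCIH838 KDSR KO (0.0593 to 0.0925). Without HUH7 CTRL replicate 1 it was -0.28. Between NCIH838 and DLD1 it differed by -0.26 (adjusted p = 0.172). In counts, 1 of 5 genes was called between NCIH838 and DLD1, against 18% of all genes tested, 2 of 5 between NCIH838 and HUH7, against 33.7%, and 0 of 5 between DLD1 and HUH7, against 2.79%. The CERS5 difference seen in NCIH838 did not pass against DLD1 (-0.24, adjusted p = 0.167) or HUH7 (-0.23, adjusted p = 0.134). CERS2 differed by 0.25 between NCIH838 and HUH7 (95% interval 0.015 to 0.477, limma adjusted p = 0.0928). That passed in 4 of 28 alternatives: median ratio scaling (0.0423), quantile normalization (0.0350), limma voom (0.0356) and leaving out NCIH838 CTRL replicate 2 (0.0348). Between NCIH838 and DLD1 CERS2 differed by 0.20 (adjusted p = 0.227). CERS6 did not pass against DLD1 (0.03, adjusted p = 0.926) or HUH7 (-0.12, adjusted p = 0.552). In DLD1 and HUH7 the ELOVL1 differences were both -0.07, and the test between them gave 0.00 (95% interval -0.14 to 0.14).

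The neighbouring steps of the pathway were described from lists of genes. In NCIH838, where 42.5% of all genes tested were called (15.7% higher and 26.8% lower), the steps before the synthases held 2 called genes of 8 tested, both lower in libraries labelled KDSR KO: SPTSSA, a small activating subunit of serine palmitoyltransferase, at 90.0 ± 13.5 TPM against 191 ± 12.4 TPM in CTRL (log2 difference -1.09, limma adjusted p = 1.72e-05), and SPTLC3, an alternative catalytic subunit, at 1.21 ± 0.233 against 3.28 ± 0.534 TPM (-0.95). Of 9 tested genes of fatty acid elongation without ELOVL1, 3 were lower and 1 higher. ELOVL6, which makes stearate from palmitate, had 15.8, 12.9 and 15.2 TPM in KDSR KO and 21.9, 22.6 and 24.1 TPM in CTRL (-0.61). The 3-hydroxyacyl-CoA dehydratases HACD1 (-0.43) and HACD2 (-0.39) were also lower. ELOVL7 was higher (0.25, adjusted p = 0.0484) and kept its call in 11 of 27 alternatives. So ELOVL1 and ELOVL6 differed in opposite directions in the same libraries. Of 7 tested genes of acyl-CoA supply, 4 were lower: DBI, the acyl-CoA binding protein (-0.72), the acyl-CoA synthetases ACSL3 (-0.40) and ACSL1 (-0.36), and the fatty acid transporter SLC27A2 (-0.64). DBI had 299, 258 and 268 TPM in KDSR KO and 436, 437 and 485 TPM in CTRL. The list medians were -0.05, -0.19 and -0.36, against -0.09 over all genes tested. The first count is below the share of all genes called, and that of the elongation list is near it. That of acyl-CoA supply, 4 of 7 and all lower, is above it. No list was tested as a set.

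After the desaturase step, 0 of 8 tested genes of ceramide use were called in NCIH838 (median 0.02). Of 14 tested genes of ceramide release and salvage, 3 were higher and 1 lower (median 0.09). Both counts are below the 42.5% of all genes called there. Sphingosine kinase SPHK1 had 39.6, 44.8 and 39.1 TPM in KDSR KO and 16.8, 17.8 and 17.9 TPM in CTRL (log2 difference 1.19). SPHK2 (0.31) and the acid sphingomyelinase gene SMPD1 (0.27) were higher as well, the SPHK2 call holding in 25 of 28 alternatives. The acid ceramidase gene ASAH1 was lower (-0.64), at 10.6 ± 1.11 TPM in KDSR KO and 17.2 ± 0.837 TPM in CTRL.

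In DLD1, where none of the 6 genes tested and 17.3% of all genes tested were called, 3 of 9 tested genes before the synthases were lower in KDSR KO: KDSR (-0.60), SPTLC3 (-0.47) and SPTSSB (-0.34, called in 22 of 28 alternatives). Of 8 elongation genes 2 were lower, ELOVL6 (-0.36) and the enoyl-CoA reductase TECR (-0.22, called in 6 of 28). Of 9 genes of acyl-CoA supply 2 were lower, DBI (-0.31) and SLC27A4 (-0.33). Of 10 genes of ceramide use, ceramide kinase CERK was lower (-0.29) and SAMD8, which makes ceramide phosphoethanolamine, higher (0.40, called in 19 of 28). Of 15 genes of release and salvage 2 were higher, SPHK1 (0.74) and the neutral ceramidase gene ASAH2 (0.37, called in 9 of 27). The list medians were -0.06, -0.10, -0.20, -0.01 and -0.05, against -0.07 over all genes tested. In HUH7, where 0% of all genes tested were called, no gene of these lists was called either: 0 of 9, 0 of 10, 0 of 7, 0 of 7 and 0 of 14 tested, with medians of 0.08, 0.09, 0.07, 0.07 and -0.02. KDSR there differed by -0.55 (adjusted p = 0.114).

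**Figure D5:**
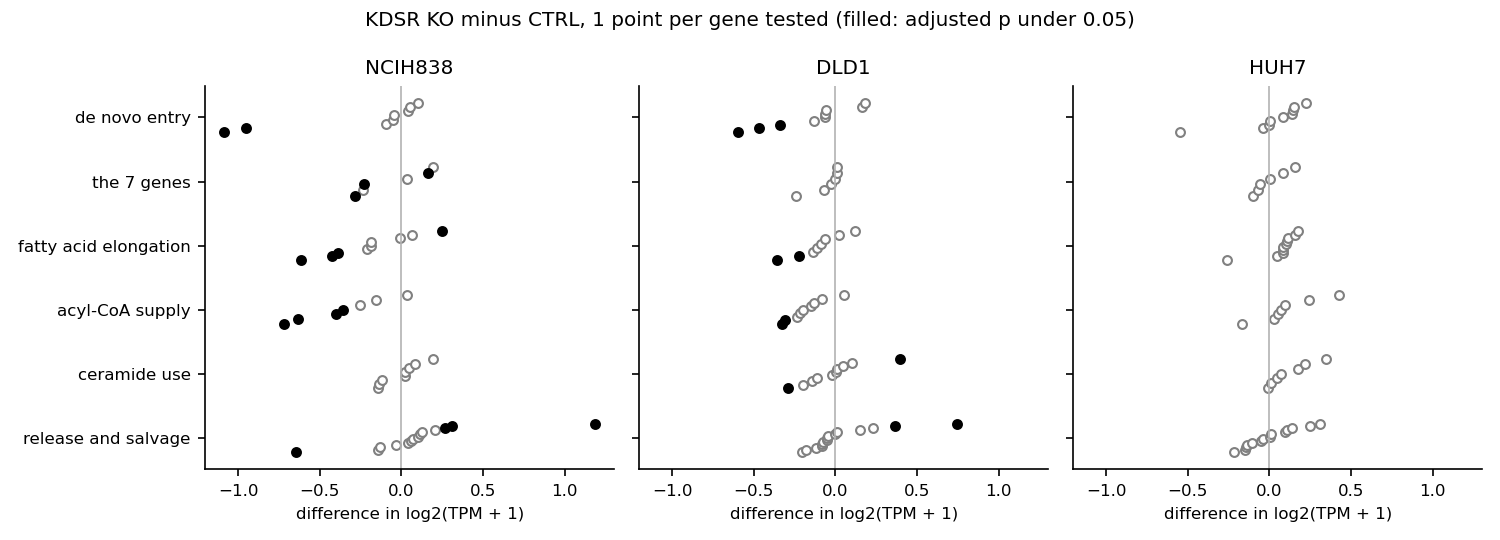
Difference in log2(TPM + 1), KDSR KO minus CTRL, for each tested gene of the pathway lists and for those of the 7 genes tested in the line (6 in each); filled points have an adjusted p under 0.05 by limma, and the height within a row only spreads the points. These 6 lie between -0.29 and 0.19 in every line. In NCIH838 the 2 filled points of the steps before them lie farther from 0 (-1.09 and -0.95), and the other 6 points of those steps are unfilled. The median in NCIH838 is -0.05 for the steps before and -0.10 for the 6 genes.

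Across the 18 libraries, likeness to each gene was measured by Pearson's r of log2(TPM + 1). Candidates were the 11337 genes that averaged 5 TPM or more and were not named as clones or as LINC, LOC or MIR genes. Likeness is a description here. The libraries fall into 3 lines and share their depth and processing, so a high r mostly restates the order of the lines. The genes most like CERS2 were FN1 and FURIN (r = 0.99 each), and those most like CERS4 were PCDHB5 and ST6GAL1 (0.999 each). For DEGS1 they were PAM (0.998) and DENND5B (0.996), and for DEGS2 CST1 and SULT1C3 (0.995 each). For CERS6 they were LRRC8B and ST7L (0.988 each), and for ELOVL1 SORD (0.984) and JAG1 (0.983). CERS5, the even gene, had the weakest likeness, to MEST (0.834) and LDHA (0.816). With the mean of each line removed, r was 0.464 for FN1, 0.670 for FURIN, 0.873 for PAM and 0.754 for MEST. Among the 7 genes, CERS2 and CERS4 had r = 0.97, and -0.20 once line means were removed. ELOVL1 and CERS6 had r = -0.93, and 0.08 once line means were removed. DEGS1 and CERS5 had r = 0.20, and 0.76 once line means were removed. With line means removed, CERS2 had r = -0.75 with DEGS1 and -0.71 with CERS5. These values still carry any difference between KDSR KO and CTRL, as that in NCIH838.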

How the data were processed

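Total RNA was sequenced from 18 libraries in 6 groups of 3. The authors deposited TPM, a length-corrected share of each library's mRNA, for 27166 genes, with identifiers and lengths. Reads were counted with featureCounts 2.0.0 on hg38, per the submitters' processing notes; the aligner, strand setting and treatment of reads that map to several genes are not given in the sources used here. All 27166 identifiers and lengths matched GENCODE 29. TPM times length gave whole multiples of a step per library for 100% of values (within 0.01 reads), which recovered the reads. A TPM is a share of its library, so a large change in other genes moves it.

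Levels were fitted as log2(TPM + 1) with limma 3.58.1 in R 4.3.3 (1 mean per group, eBayes with trend and robust options, 12 residual degrees of freedom), which also gives the SE and the 95% intervals. The added 1 TPM pulls differences of low genes toward 0. Of the genes in the table, 19869 that averaged 1 TPM or more in a line were fitted. A line's KDSR KO comparison tested genes with that mean in the line, a CTRL comparison those with it over the 6 libraries compared, and a difference between lines those with it in all 3 lines. P-values are two-sided, adjusted by Benjamini-Hochberg over the genes tested, and called under 0.05. The fit was tested on simulated data. The level of KDSR was compared by exact permutation as well. Ratios of low read counts have exact 95% intervals. Promoters came from RefSeq tables.

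The 7 genes and the gene lists were chosen with earlier results of these data known. Named beside them were KDSR, CERS1, CERS3, up to 4 called genes of each list by smallest p, overlapping genes, the highest tissue markers and the 2 genes most like each of the 7. The 28 alternatives were a pseudocount of 0.1, no filter, a stricter filter of 5 TPM, quantile normalization, median ratio scaling over genes that averaged 10 TPM or more, leaving out mitochondrially encoded genes, a replicate block, plain eBayes, a fit of the groups compared, limma voom on reads and leaving out each of 18 libraries.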

Additional observations from a re-analysis of the deposited data

Results flagged for a closer look

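The difference between KDSR KO and CTRL differed between lines, by a test of that difference itself, for ELOVL1 and DEGS1. For ELOVL1 it was 0.23 larger on the log2 scale in NCIH838 than in DLD1 (limma, adjusted p = 0.0278) and 0.23 larger than in HUH7 (adjusted p = 0.0161). The call against DLD1 was lost in 9 of 28 alternatives, that against HUH7 in none of them. All 3 NCIH838 libraries labelled KDSR KO were above all 3 of CTRL, while in DLD1 and HUH7 the labels overlapped. For DEGS1 it was -0.37 in NCIH838 against HUH7 (adjusted p = 0.0359), with all 3 NCIH838 libraries labelled KDSR KO below all of CTRL and an overlap in HUH7. This call was lost in 10 of 28 alternatives, among them the replicate block (adjusted p = 0.0567) and leaving out HUH7 CTRL replicate 1 (-0.28, adjusted p = 0.0874). Of the 5 genes tested, 1 was called against DLD1 and 2 against HUH7, beside 18% and 33.7% of all genes tested. The labels did not overlap for 50.8% of all genes in NCIH838, 39.2% in DLD1 and 16.9% in HUH7. Collection day was 10 in NCIH838 and 8 in the other lines, and the level of KDSR mRNA did not separate the labels in NCIH838. The part of either in these differences was not tested.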

How the results depend on the processing

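Over 123 results for single genes and 3429 fits, 3284 kept their side of the threshold, 110 lost a call, 35 gained one and 0 reversed a called direction; 79 values that were not called changed sign. The count of the 7 genes called in NCIH838, 3, was 1 when only the 2 groups were fitted and 1 to 4 with a library left out. CERS2 gained a call there with the stricter filter and with limma voom, and CERS4 with plain eBayes. With median ratio scaling and with quantile normalization CERS2 gained a call and CERS5 lost its own. In DLD1 the count was 0, and 0 to 1 with a library left out. For the difference between NCIH838 and DLD1 it was 1, 0 with plain eBayes and 0 to 1 with a library left out. Between NCIH838 and HUH7 it was 2, 1 without a filter and in a fit of the groups compared, and 1 to 3 with a library left out. CERS2 gained a call there with median ratio scaling, quantile normalization and limma voom, where ELOVL1 and DEGS1 kept theirs. Over all genes, HUH7 had 0 calls, 9 without a filter, 2 with median ratio scaling, 2 with quantile normalization, 7 with plain eBayes and 0 to 7 with a library left out. DLD1 had 2674, and 1605 to 3286 with a library left out; the difference between DLD1 and HUH7 had 350, and 194 to 447. The cause was not tested. As shares of reads rather than TPM, which weights long transcripts, CERS2 made up 56.0% and 52.1% of the synthases in NCIH838 KDSR KO and CTRL, 56.1% and 56.3% in DLD1, and 76.9% and 78.0% in HUH7. Deviations of libraries with the same replicate number correlated at -0.05 to 0.13, and at 0.05, 0.13 and 0.03 in NCIH838. With 3 libraries a group, this cannot settle whether the numbers pair the libraries. With a replicate block, the count between NCIH838 and HUH7 was 1, DEGS1 missing the threshold there (adjusted p = 0.0567); ASAH2, SAMD8 and TECR in DLD1 and ELOVL7 in NCIH838 also lost their calls. Depth limits CERS4 in DLD1 and DEGS2 in NCIH838 and HUH7, which rest on 0 to 4 reads a library. Leaving out libraries from the shares of synthases and from KDSR was added after the data were seen.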
